A study of Mus musculus with 7 samples.

Results

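The genes of the proteasome were described in the hearts of mNrf2-TG and non-transgenic (NTG) mice. Members were all genes whose symbol begins with Psm, a letter from a to g and a digit, which gave 49 of the 14641 genes counted. Of these, 47 encode subunits, regulators or assembly chaperones of the proteasome, and the other two, Psmc3ip and Psme3ip1, encode interacting proteins that are not subunits. By role they were 8 alpha and 7 constitutive beta subunits of the 20S core, 3 inducible beta subunits, 6 ATPases, 3 non-ATPase base subunits and 8 lid subunits of the 19S particle, 4 activator genes, 1 inhibitor and 7 assembly chaperones. All 49 passed the filter on low counts, a summed count above 1, so none was lost to it.

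The 4 NTG and 3 mNrf2-TG libraries came from whole heart lysates of male C57BL/6J mice, with 1 library per mouse, numbered 1 to 4 and 17 to 19. The mNrf2-TG mice carry full-length Nrf2 (Nfe2l2) driven by the αMHC promoter, which is active in cardiomyocytes, and the NTG mice were their littermates without the transgene. The mNrf2-TG labels give an age of 6 months, the NTG labels give none, and the description of the series gives 7 to 8 months. RNA was selected for poly(A) and sequenced in single reads of 50 bases. The comparison addressed which genes follow a raised level of Nrf2 in the heart, here within the machinery that degrades ubiquitinated proteins.

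The proteasome is the main protease for ubiquitinated proteins in the cytosol and nucleus. Its 20S core is a barrel of stacked alpha and beta rings with the active sites on the inside, and the 19S particle recognizes, deubiquitinates and unfolds substrates. In the heart it clears damaged and misfolded proteins, and Nrf2 itself is kept low by Keap1-dependent ubiquitination and proteasomal degradation. Nrf2 binds antioxidant response elements (ARE) in promoters, Nrf1 (Nfe2l1) is the factor best known for inducing proteasome genes together when the proteasome is inhibited, and interferon induces the inducible beta subunits and PA28.

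Each library held 6534684 to 8405857 counted reads. Levels are given as normalized counts, which are read counts scaled by TMM factors to a library of 7526180 reads, and as mean ± SD with n = 4 NTG and n = 3 mNrf2-TG. Log2FC is mNrf2-TG over NTG, and an adjusted p is that of edgeR's quasi-likelihood test over all 14637 genes tested. Nfe2l2 rose from 1114 ± 281 to 11478 ± 657 normalized counts (Log2FC 3.36, adjusted p = 2.96e-06), the direction its label gives. The cardiomyocyte markers Myh6, Tnnt2, Tnni3, Actc1, Ryr2 and Myl2 were abundant in every library, and their summed normalized count was lower in mNrf2-TG (425164 to 445701) than in NTG (500598 to 534173). At an adjusted p under 0.05, 2 of 6 were lower, Tnni3 (Log2FC -0.53) and Myl2 (-0.57). Among all genes tested 8.73% were lower, and among those with a mean of 100 or more normalized counts 13.7%. Myh6 (-0.28), Tnnt2 (-0.19) and Ryr2 (-0.24) did not pass, nor did Actc1, which went the other way (0.09). The library mNrf2-TG 18 stood apart in genes of MHC class I and the interferon response. Their sum over 9 genes was 18734 normalized counts there, against 5223 and 5236 in mNrf2-TG 17 and 19 and 6164 to 7795 in NTG. Results that rest on that library are given below with and without it. In these lysates, fewer cells of a type and less RNA per cell cannot be told apart.

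The upstream sequences of 4 members are shown beside the letters that Nrf2 recognizes. Psma5, Psmb4 and Psmc6 had an adjusted p under 0.05, and Psmb5 did not. The core letters of the ARE, TGACNNNGC, were searched on both strands of RefSeq promoter windows (GRCm38.p6) from 250 bases before to 50 bases after the start, and a position is that of the first matched base relative to the start. Windows were given for 41 members, and Psmb2, Psmc3 and Psmd7, which had an adjusted p under 0.05, were not among them. A match stood in 6 of their 45 windows (13.3%), against 12.4% of all 32851 windows and 14.1% of the 14726 windows of genes tested. Capitals mark the match, and bases that GENCODE M21 places inside the gene are left off. Psma5 (chr3:108256676-108256925, plus strand) and Psmb4 (chr3:94886962-94887208, minus strand) rose and have no match. Psmb5 (chr14:54618023-54618245, minus strand) has one at position -47 from the start and did not pass the test. Psmc6 (chr14:45329574-45329787, plus strand) has one at position -227 on the reverse strand and fell.
Psma5: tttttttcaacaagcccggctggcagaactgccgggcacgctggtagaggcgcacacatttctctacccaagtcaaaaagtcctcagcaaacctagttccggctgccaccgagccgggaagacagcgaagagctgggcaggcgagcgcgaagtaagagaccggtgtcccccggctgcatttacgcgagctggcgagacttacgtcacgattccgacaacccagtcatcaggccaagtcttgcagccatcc
Psmb4: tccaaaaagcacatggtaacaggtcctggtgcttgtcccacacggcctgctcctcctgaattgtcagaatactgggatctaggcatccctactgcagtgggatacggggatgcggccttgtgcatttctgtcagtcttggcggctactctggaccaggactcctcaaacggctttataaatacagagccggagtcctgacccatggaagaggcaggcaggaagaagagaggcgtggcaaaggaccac
Psmb5: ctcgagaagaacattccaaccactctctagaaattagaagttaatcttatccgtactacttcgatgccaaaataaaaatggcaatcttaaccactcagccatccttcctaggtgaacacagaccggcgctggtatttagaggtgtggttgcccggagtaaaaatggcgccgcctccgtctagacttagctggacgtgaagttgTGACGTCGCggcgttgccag
Psmc6: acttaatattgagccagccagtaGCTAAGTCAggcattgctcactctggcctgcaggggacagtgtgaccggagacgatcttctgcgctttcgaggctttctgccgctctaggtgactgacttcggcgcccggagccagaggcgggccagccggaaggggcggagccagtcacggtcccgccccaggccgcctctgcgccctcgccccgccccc

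The other members with a match were Psmb6 (position -9), Psmd12 (-247), Psmd9 (-31) and Psme4 (-7). Among these 6 genes, Psme4 rose, Psmc6 and Psmd12 fell, and Psmb5, Psmb6 and Psmd9 did not pass the test. A match describes letters in a window and is not evidence of binding.

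Proteasome genes moved in both directions in mNrf2-TG hearts. The inducible beta subunits Psmb9 and Psmb10, the PA28 beta subunit Psme2, the activator Psme4 and the core subunits Psma5 and Psmb4 rose. Psma1 and Psmb2 of the core, Psmc3 and Psmc6 of the ATPase ring, Psmd7 and Psmd12 of the lid, and the PA28 gamma gene Psme3 fell. In all, 13 of 49 members (26.5%) had an adjusted p under 0.05, 6 higher and 7 lower. Among all genes tested the share was 17.2%, with 8.48% higher and 8.73% lower. Most members are well expressed, and among the 7976 genes with a mean of 100 or more normalized counts the share was 24.0%, with 10.3% higher and 13.7% lower, so the members' share was near that of genes with like counts. The normalized counts of the groups did not overlap for 19 members, the 13 named and Psmc2, Psmd1, Psmd8, Psmd5, Psmd10 and Psmf1, against 29.7% of all genes tested and 37.8% of the well-expressed ones. At an unadjusted p under 0.05 there were 18 members (36.7%), beside 32.2% of all genes tested and 41.2% of the well-expressed ones.

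The largest increase was that of Psmb9 (Log2FC 1.63) and the largest decrease that of Psmb2 (-0.43). The median Log2FC of the members was -0.07, beside 0.00 for all genes tested and -0.04 for well-expressed genes. A Log2FC above 0 was found for 18 members, beside 50.1% of all genes tested and 44.3% of well-expressed genes.

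**Figure D1:**
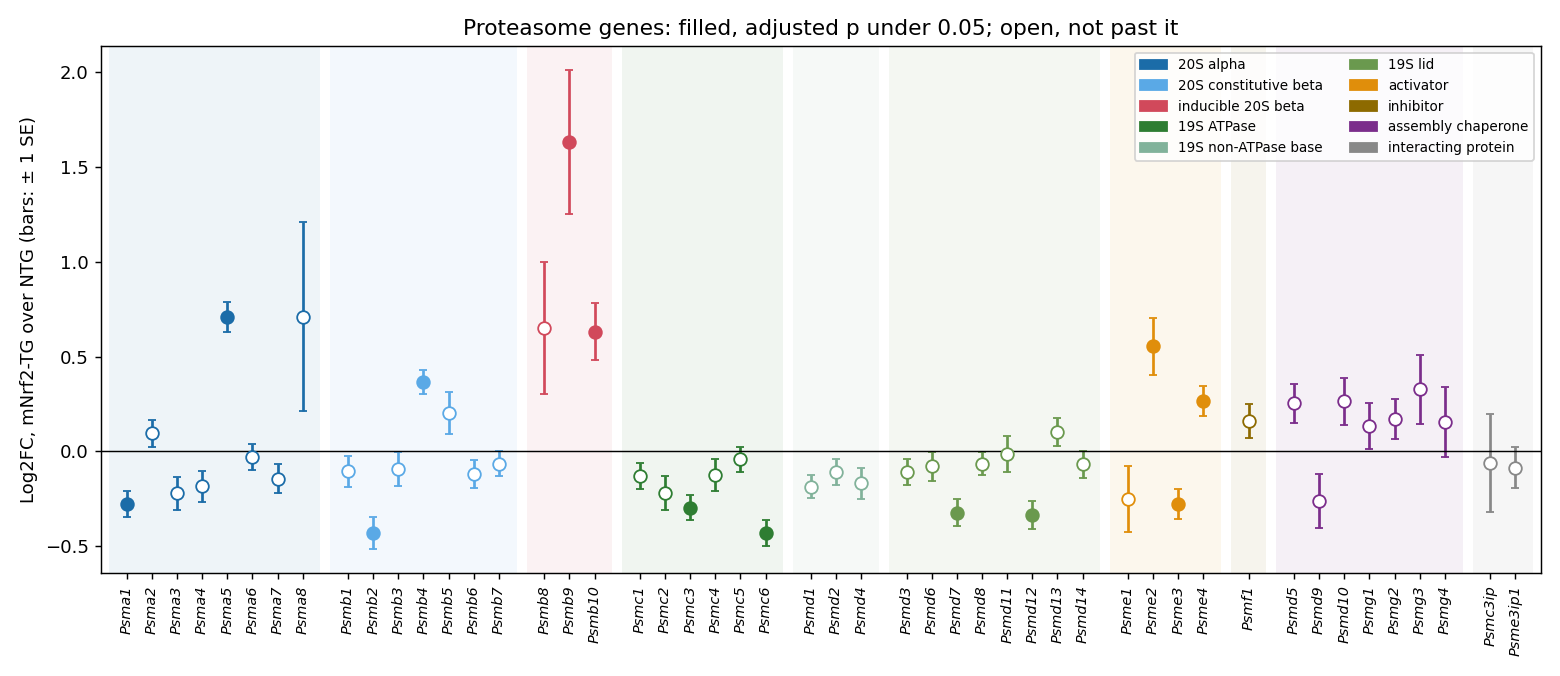
Log2FC of mNrf2-TG over NTG (y axis) for the 49 members (x axis), grouped and coloured by role, with bars of ± 1 SE. Filled points have an adjusted p under 0.05. The 6 ATPase and 3 base genes lie below 0, while the 3 inducible beta genes lie above it, led by Psmb9 at 1.63.

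Medians and calls are given by class. The 17 genes of the 19S particle had a median Log2FC of -0.12, with 16 of 17 negative, 4 lower at an adjusted p under 0.05 and 0 higher (6 at an unadjusted p under 0.05). Their called share was 23.5%, beside 17.2% of all genes tested and 24.0% of the well-expressed ones. Among the well-expressed genes 13.7% were lower, and the median Log2FC was -0.04. The median was -0.18 for the 6 ATPases, all negative, -0.17 for the 3 non-ATPase base genes, all negative, and -0.08 for the 8 lid genes, of which 7 were negative. The 8 alpha genes had a median of -0.09 and the 7 constitutive beta genes of -0.10, each with 1 gene higher and 1 lower at an adjusted p under 0.05. Activators had a median of 0.01, with 2 higher and 1 lower, assembly chaperones of 0.17 with 0 called (1 at an unadjusted p under 0.05), and inducible beta genes of 0.65 with 2 higher. Without mNrf2-TG 18 the median of the inducible beta genes was 0.41 and that of the constitutive beta genes -0.05, and without NTG 3 that of the non-ATPase base genes was -0.11. The alpha median was -0.14 with filterByExpr, which leaves out Psma8, and the lid median -0.05 on a scale of the library total alone. These are small lists, and whether one class differs from another was not tested.

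The 32 genes of the constitutive 20S and 19S particles had summed normalized counts of 26268 to 27035 among NTG libraries, and of 23981 to 24642 among mNrf2-TG libraries, without overlap. Levels per length are given as CPM per kilobase, which are read counts scaled by TMM library size and divided by exon length. On this scale their sum was 2210.3 ± 20.3 CPM per kilobase in NTG and 2030.2 ± 27.4 in mNrf2-TG. The 19S part of that sum was lower in each mNrf2-TG library than in any NTG library, at 945 ± 11.4 against 1063 ± 22.1 CPM per kilobase. The 8 alpha genes likewise summed to less in each mNrf2-TG library than in any NTG library, at 448 ± 6.27 against 478 ± 4.24, while the 7 constitutive beta genes stood at 637 ± 25 and 669 ± 13.8 with overlap. The summed cardiomyocyte markers were also lower in the 3 mNrf2-TG libraries (above), and their part in these sums was not tested. On a scale of the library total alone, all genes moved by a median of 0.03 and the 32 genes had a median Log2FC of -0.08 with 25 negative, against -0.11 with 26 negative.

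**Figure D2:**
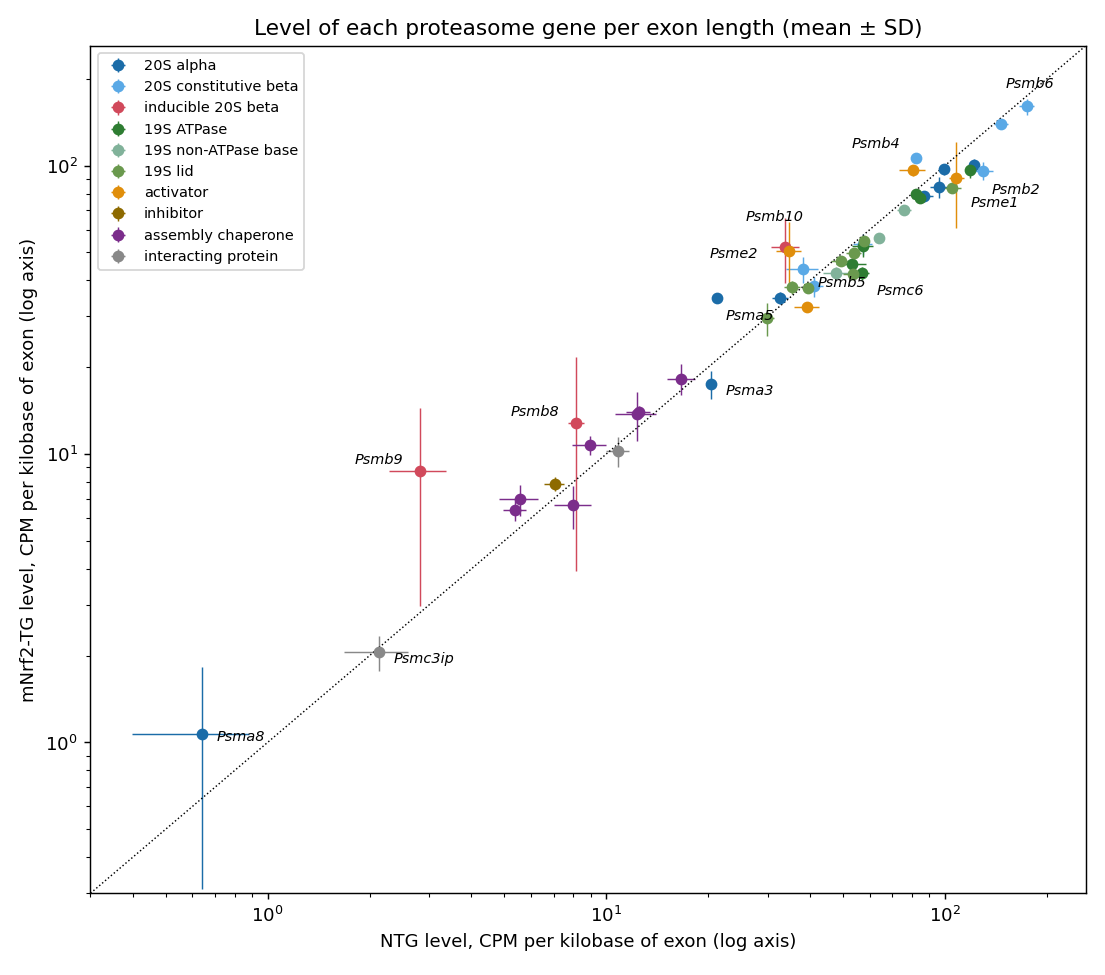
Level of each member per exon length in NTG (x axis) and mNrf2-TG (y axis), in CPM per kilobase on log axes, as mean ± SD over 4 and 3 libraries; the dotted line marks equal levels. Psmb6 was the highest in both groups, and Psmb9, Psma5 and Psmb4 lie above the line while Psmb2 and Psmc6 lie below it.

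Per exon length, the levels of the members spanned from 0.64 CPM per kilobase for Psma8, an alpha subunit known from the testis, to 175 ± 8.74 for Psmb6 in NTG. Psmb7 (146 ± 7.07), Psmb2 (129 ± 9.04), Psma1 (122 ± 3.56) and Psmc3 (118 ± 2.01) followed Psmb6. Psma1 and Psmc3 were within their spread of each other. In mNrf2-TG, Psmb6 and Psmb7 were again first and second, Psmb4 moved from rank 13 to rank 3 of 49, and Psmb2 from rank 3 to rank 8. Neighbouring ranks were close. In mNrf2-TG, Psmb2 (95.9 ± 6.91) lay within its spread of Psma6 (97.1 ± 4.33), Psme4 (96.4 ± 4.23) and Psmc3 (96.4 ± 5.6). In NTG, Psmb4 (82.2 ± 2.44) lay within its spread of Psmc5 (82.3 ± 2.43), and Psmb2 within its spread of Psma1. The lowest levels after Psma8 in NTG were those of Psmc3ip (2.14 ± 0.458) and Psmb9 (2.82 ± 0.538).

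In the core, Psma5 showed the clearest increase. Psma5 (chromosome 3, 108256926 to 108279974, plus strand, GRCm38) encodes an alpha ring subunit. It had 195, 209, 193 and 195 normalized counts in NTG 1 to 4 and 336, 327 and 309.5 in mNrf2-TG 17, 18 and 19. The groups were far apart and each was tight, which gave 198 ± 7.26 against 324 ± 13.3 and a Log2FC of 0.71 (SE 0.08, adjusted p = 0.000544). The increase was past the threshold under all 13 alternative settings. Of the distinct stretches of 50 bases in its exons, 49.1% also occur in the annotated genes Gm8394 and Gm12989, so reads could be split among these copies, and 60 exonic bases are shared with 1700010K24Rik on the opposite strand.

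Psmb4 (chromosome 3, 94884093 to 94886961, minus strand) encodes a beta ring subunit without an active site. Its normalized counts were 718, 712, 739 and 759.7 in NTG 1 to 4 and 933, 961 and 936 in mNrf2-TG. All 3 transgenic libraries lay above all 4 controls, with a Log2FC of 0.36 (SE 0.06, adjusted p = 0.00494). Against the median of the other constitutive 20S subunits per length, with Psma8 left out, Psmb4 stood at 0.963 ± 0.0774 in NTG and 1.35 ± 0.083 in mNrf2-TG. On the same ratio Psma5 stood at 0.245 ± 0.00752 and 0.415 ± 0.0361.

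Psmb2 (chromosome 4, 126677630 to 126709714, plus strand), another beta subunit without an active site, moved the other way. It had 786, 787, 883 and 892 normalized counts in NTG and 642, 568 and 649 in mNrf2-TG 17, 18 and 19. No transgenic library reached the lowest control, and Log2FC was -0.43 (SE 0.08, adjusted p = 0.0078). Its ratio to the median of the other constitutive 20S subunits was 1.60 ± 0.0986 in NTG and 1.22 ± 0.04 in mNrf2-TG. This ratio did not overlap between the groups. It was taken only for Psma5, Psmb4 and Psmb2, which had passed the test on the same counts, so it is no separate evidence.

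Psma1 (chromosome 7, 114264606 to 114276118, minus strand), an alpha subunit, also fell. It had 1189.5, 1126, 1118 and 1127 normalized counts in NTG and 904, 988 and 927 in mNrf2-TG. The groups did not overlap (Log2FC -0.28, SE 0.07, adjusted p = 0.0186). The call was lost without NTG 1 (adjusted p = 0.0607), without mNrf2-TG 17 (0.0748) or without mNrf2-TG 19 (0.0647).

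The other 11 alpha and constitutive beta genes did not pass the test. Psma2, Psma3, Psma4, Psma6 and Psma7 had a Log2FC from -0.22 to 0.09, and Psmb1, Psmb3, Psmb5, Psmb6 and Psmb7 one from -0.12 to 0.20. The last of the 11 was Psma8, which had 5 to 12 counts in NTG and 23, 9 and 8 in mNrf2-TG and a Log2FC of 0.71 that turned to -0.01 without mNrf2-TG 17. The active sites of the constitutive core are carried by Psmb5 (chymotrypsin-like), Psmb6 (caspase-like) and Psmb7 (trypsin-like). Psmb5 had 278, 276, 259 and 217 normalized counts in NTG and 260.4, 307 and 319.5 in mNrf2-TG (adjusted p = 0.248), and 54.1% of its stretches of 50 bases occur in other annotated genes. Psmb6 had 1108, 1009, 1000.2 and 1077 in NTG and 953, 905 and 1030.2 in mNrf2-TG (adjusted p = 0.288). Psmb7 had 1345, 1311, 1212 and 1239.6 in NTG and 1191, 1211 and 1257 in mNrf2-TG (adjusted p = 0.543), and it shares 405 exonic bases with Nek6 on the opposite strand. The groups overlapped for all 3 catalytic genes.

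**Figure D3:**
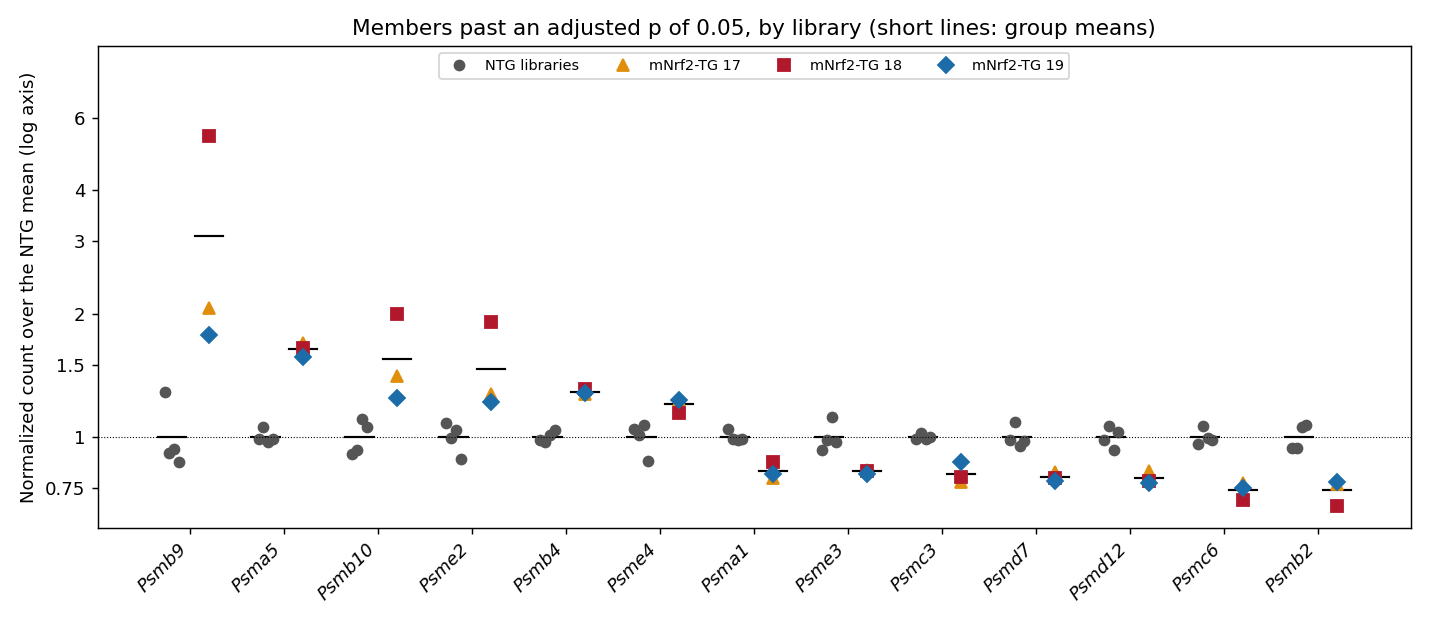
Normalized count of each library over the NTG mean (y axis, log axis) for the 13 members with an adjusted p under 0.05 (x axis), with short lines for group means. The 3 mNrf2-TG libraries lie close together for Psma5, Psmb4 and the genes that fell, while mNrf2-TG 18 lies well above the other transgenic libraries for Psmb9, Psmb10 and Psme2.

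The ATPase ring of the 19S base unfolds substrates and opens the core. Psmc6 (chromosome 14, 45329788 to 45349705, plus strand) had 922, 1018, 954 and 944 normalized counts in NTG and 741, 674 and 719 in mNrf2-TG. Every transgenic library was below every control, with a Log2FC of -0.43 (SE 0.07, adjusted p = 0.00382), a decrease past the threshold under all 13 alternative settings. Psmc3 (chromosome 2, 91054009 to 91066369, plus strand) had 1803, 1867, 1801 and 1817 in NTG and 1415, 1453 and 1579 in mNrf2-TG. Its controls were tight and the groups did not overlap (Log2FC -0.30, SE 0.07, adjusted p = 0.0136), and the call was lost without mNrf2-TG 17 (0.0596) or 18 (0.0508). Psmc3 shares 97 exonic bases with Slc39a13 on the opposite strand. Psmc1, Psmc2, Psmc4 and Psmc5 had a Log2FC from -0.22 to -0.04 and did not pass.

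Lid subunits hold the deubiquitinase and its scaffold. Psmd12 (chromosome 11, 107479484 to 107504362, plus strand), a scaffold subunit of the lid, had 1042, 1131, 986 and 1095 normalized counts in NTG and 878, 829.6 and 819 in mNrf2-TG. The groups did not overlap, and Log2FC was -0.34 (SE 0.07, adjusted p = 0.0124). Psmd7 (chromosome 8, 107580381 to 107588464, minus strand), the partner of the deubiquitinase Psmd14, had 1229, 1358, 1185 and 1223 in NTG and 1026, 992 and 975 in mNrf2-TG. It too fell without overlap (Log2FC -0.32, SE 0.07, adjusted p = 0.0133). Without mNrf2-TG 19, the adjusted p was 0.0519 for Psmd12 and 0.0539 for Psmd7. Psmd3, Psmd6, Psmd8 and Psmd11 had a Log2FC from -0.11 to -0.02 and did not pass. Psmd14 itself stood at 457 ± 18 and 436 ± 8.75 (adjusted p = 0.534), and Psmd13 was the only one of the 17 Psm-named 19S genes with a positive Log2FC (0.10, adjusted p = 0.389), joined by Psmd11 (0.011) on a scale of the library total alone.

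The 3 non-ATPase base genes are the scaffolds Psmd1 and Psmd2 and the ubiquitin receptor Psmd4. Their Log2FC was -0.19, -0.11 and -0.17. Psmd1 had no overlap between groups, 1495.2 ± 49.2 against 1313 ± 24.6, and missed the threshold in edgeR (adjusted p = 0.0663) while it passed in DESeq2 (0.0495). It shares 301 exonic bases with Gm21972 on its own strand, and Psmd13 shares 152 with Sirt3 on the opposite one. Of the subunits without a Psm name, Sem1 of the lid rose from 944 ± 86.5 to 1156 ± 87 normalized counts (Log2FC 0.29, adjusted p = 0.0486), a call that held under 7 of 13 alternatives, and the ubiquitin receptor Adrm1 stood at 284 ± 21.7 and 237 ± 21.6 (adjusted p = 0.0956).

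Interferon exchanges the 3 catalytic subunits for inducible ones, which gives the immunoproteasome that serves MHC class I presentation. Psmb9 (chromosome 17, 34181987 to 34187764, minus strand), which takes the place of Psmb6, had 36.8, 26.1, 26.8 and 24.9 normalized counts in NTG and 59.2, 156 and 50.8 in mNrf2-TG 17, 18 and 19. Each transgenic library lay above each control and mNrf2-TG 18 was by far the highest (Log2FC 1.63, SE 0.38, adjusted p = 0.0174). Without mNrf2-TG 18, Log2FC was 0.94 with an adjusted p of 0.0324, and without NTG 2 the adjusted p was 0.0502. Psmb9 shares 212 exonic bases with Tap1 on the opposite strand, and strand use in counting is not given in the sources used here.

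Psmb10 (chromosome 8, 105935735 to 105938444, minus strand), which takes the place of Psmb7, had 303, 309.6, 369 and 351 normalized counts in NTG and 469, 664 and 416 in mNrf2-TG. The groups did not overlap (Log2FC 0.63, SE 0.15, adjusted p = 0.0189). Without mNrf2-TG 18 the Log2FC was 0.41 and the adjusted p 0.0493, while the adjusted p was 0.052 without NTG 1 and 0.0522 without NTG 2.

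Psmb8 (chromosome 17, 34197721 to 34201454, plus strand), which takes the place of Psmb5, behaved otherwise. It had 105, 91.8, 102 and 101 normalized counts in NTG and 100.1, 282 and 88 in mNrf2-TG. The library mNrf2-TG 18 lay far above the controls, mNrf2-TG 17 within their range and mNrf2-TG 19 just below it. The Log2FC of 0.65 (SE 0.35, adjusted p = 0.229) turned to -0.09 without it (adjusted p = 0.725). Psmb8 shares 186 exonic bases with Gm20496 on the opposite strand.

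Per exon length, the ratio of each inducible gene to the constitutive gene it replaces was below 1 in every library. Psmb9 to Psmb6 was 0.0161 ± 0.00252 in NTG and 0.0366, 0.101 and 0.0291 in mNrf2-TG 17, 18 and 19. Psmb10 to Psmb7 was 0.232 ± 0.0334 in NTG and 0.348, 0.485 and 0.293 in mNrf2-TG. Neither ratio overlapped between groups. Psmb8 to Psmb5 was 0.216 ± 0.0301 in NTG and 0.212, 0.506 and 0.152 in mNrf2-TG, so that the groups overlapped, and the ratio of the group means went from 1.34 to 0.843 without mNrf2-TG 18.

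**Figure D4:**
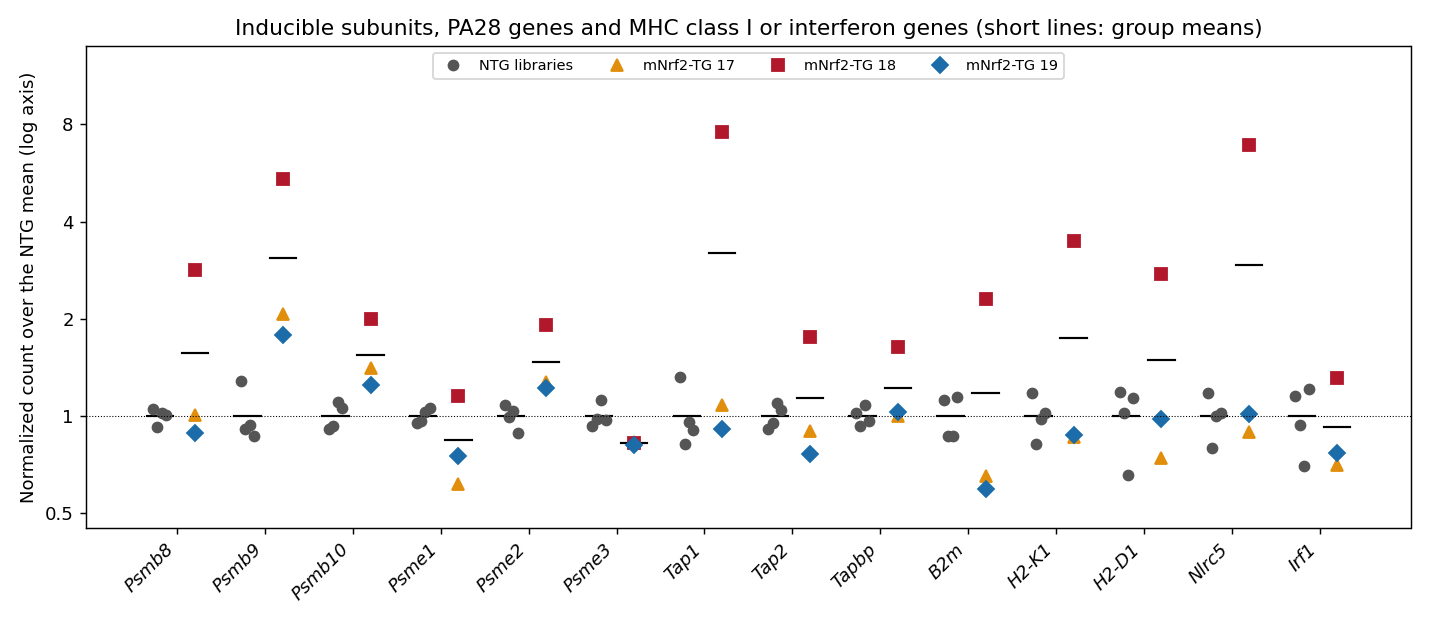
Normalized count of each library over the NTG mean (y axis, log axis) for the inducible subunits, the PA28 genes and 8 genes of MHC class I and the interferon response (x axis), with short lines for group means. Tap1 and Nlrc5 are raised in mNrf2-TG 18 alone, while Psmb9, Psmb10 and Psme2 lie above the controls in all 3 transgenic libraries.

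Genes of the interferon response moved with these members in 1 library. Tap1, the peptide transporter beside Psmb9 in the MHC region, had 416 normalized counts in mNrf2-TG 18, against 59.2 and 49.9 in the other two and 45 to 72.4 in NTG. Of the 9 genes in that list, 0 had an adjusted p under 0.05 in edgeR (3 at an unadjusted p under 0.05). Without mNrf2-TG 18, Tap1 stood at a Log2FC of -0.01, while B2m, the light chain of MHC class I, fell (Log2FC -0.69, adjusted p = 0.0178).

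Several leukocyte markers moved with the group. Their sum over Ptprc, Cd68, Adgre1, Csf1r, Itgam, Cd14 and Laptm5 was 768 to 949 normalized counts in NTG and 1213, 1733 and 1194 in mNrf2-TG 17, 18 and 19. At an adjusted p under 0.05, 4 of 7 (Ptprc, Adgre1, Csf1r and Laptm5) were higher, beside 8.48% of all genes tested and 10.3% of the well-expressed ones. Cd68 (Log2FC 0.34), Itgam (-0.25) and Cd14 (-0.05) did not pass. The T and NK cell markers Cd3e and Nkg7 summed to at most 4.93 in any library. Of the fibroblast markers Col1a1, Dcn, Pdgfra and Lum, Lum (Log2FC 1.05, adjusted p = 0.00562) and Col1a1 (0.77, adjusted p = 0.0141) were higher. Dcn (0.22, adjusted p = 0.0826) and Pdgfra (0.15, adjusted p = 0.708) did not pass. The sum over all 4 fibroblast markers was 7190 to 9307 normalized counts in the controls and 9844 to 10293 in the transgenic libraries. Most of that sum came from Dcn (6149 in NTG). Of the endothelial markers, Pecam1 (-0.47, adjusted p = 0.0021) and Cdh5 (-0.37, adjusted p = 0.0219) were lower, Kdr (0.39, adjusted p = 0.048) was higher and Tek did not pass, and their sums overlapped. Of the genes listed for skeletal muscle, Myh4 and Ckm were lower and Acta1 did not pass. In NTG, Ckm (13843 normalized counts) and Acta1 (3661) stood far above Myh4 (369). The cells that the counts of Ckm and Acta1 came from cannot be told in whole heart lysates. Neither red blood cell marker, Alas2 nor Hba-a1, passed. The part of these cell types in the levels of the members was not tested.

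The activators cap the core in place of the 19S particle. Psme1 and Psme2 encode the alpha and beta subunits of the interferon-inducible PA28 ring. Psme2 passed the test and Psme1 did not, and among the transgenic libraries both were highest in mNrf2-TG 18. Whether they differ was not tested. Psme2 (chromosome 14, 55587441 to 55591113, minus strand) had 275, 253, 264 and 225 normalized counts in NTG and 324, 485 and 309.5 in mNrf2-TG. The groups did not overlap (Log2FC 0.55, SE 0.15, adjusted p = 0.0338), but the call was lost without mNrf2-TG 18 (Log2FC 0.32, adjusted p = 0.0887) and without NTG 1, NTG 2 or NTG 4 (0.056, 0.0758 and 0.072). Of its stretches of 50 bases, 28.3% occur in the copies Psme2b and Gm7928. Psme1 (chromosome 14, 55578123 to 55581529, plus strand) had 862, 872, 927 and 959 in NTG and 556, 1040.4 and 682 in mNrf2-TG. The libraries mNrf2-TG 17 and 19 lay below all controls and mNrf2-TG 18 above them (Log2FC -0.25, SE 0.17, adjusted p = 0.349), and without mNrf2-TG 18 Psme1 was lower with a Log2FC of -0.55 (adjusted p = 0.0141).

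Psme3 (chromosome 11, 101316213 to 101323537, plus strand), the nuclear PA28 gamma, had 731, 770.4, 881 and 762 normalized counts in NTG and 654, 649 and 638 in mNrf2-TG. The transgenic libraries were tight and below all controls (Log2FC -0.28, SE 0.08, adjusted p = 0.0368). The call was lost when NTG 2, NTG 4 or any of the 3 mNrf2-TG libraries was left out (adjusted p up to 0.103). Psme4 (chromosome 11, 30771726 to 30880361, plus strand), which encodes the activator PA200, had 4096, 3963, 4199.8 and 3431 in NTG and 4837, 4473 and 4824 in mNrf2-TG. It had the most counts of all members and did not overlap (Log2FC 0.26, SE 0.08, adjusted p = 0.0472), and the call was lost in 6 of the 7 fits that left out 1 library, all except the one without NTG 3 (adjusted p up to 0.139). Psmf1, which encodes the inhibitor PI31, stood at 212 ± 14.4 and 236 ± 13.1 without overlap (Log2FC 0.16, adjusted p = 0.257).

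Assembly chaperones build the alpha ring (Psmg1 to Psmg4) and the 19S base (Psmd5, Psmd9 and Psmd10). For 6 of 7 the Log2FC was positive, from 0.13 to 0.33, and none passed the test. Psmd5 (177 ± 13.7 and 212 ± 17.5, adjusted p = 0.114) and Psmd10 (99 ± 11.4 and 119 ± 8.79, adjusted p = 0.18) did not overlap between groups. Psmd9 was the exception with a Log2FC of -0.26 (adjusted p = 0.233). Pomp, the maturation factor of the beta ring, is not named as a Psm gene and rose from 696 ± 55.5 to 907 ± 31.8 normalized counts (Log2FC 0.38, adjusted p = 0.0106), past the threshold under all 13 alternatives. Akirin2, which imports proteasomes into the nucleus, and Ecpas did not pass. Of the interacting proteins, Psmc3ip had a Log2FC of -0.06 and Psme3ip1 of -0.09, with overlap, and Psmc3ip shares 385 exonic bases with Mlx on the opposite strand.

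Of the 36 partner genes tested in 7 lists, 10 had an adjusted p under 0.05, beside 17.2% of all genes tested and 24.0% of the well-expressed ones, and 4 of the 10 were Nrf2 targets. In the list of proteasome-bound factors, the ubiquitin shuttles Ubqln1 (729 ± 74.8 to 547 ± 27.4 normalized counts, Log2FC -0.42, adjusted p = 0.0142) and Rad23b (1318 ± 85 to 1057 ± 17.4, Log2FC -0.32, adjusted p = 0.015) fell. The call of Ubqln1 was lost without mNrf2-TG 19 (0.0611) and that of Rad23b without mNrf2-TG 17 (0.0502) or 19 (0.0578). The other 5 of 7, the deubiquitinases Usp14 and Uchl5 among them, did not pass. Ubqln2, a paralog of Ubqln1, was among these (Log2FC 0.17).

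In the Nrf1 pathway, which restores proteasome genes after inhibition, 2 of 5 genes passed. The share was 17.2% of all genes tested and 24.0% of the well-expressed ones. Ddi2, the protease that activates Nrf1, had 124, 147, 129 and 103 normalized counts in NTG and 79.6, 72.9 and 72.6 in mNrf2-TG. It fell without overlap (Log2FC -0.74, SE 0.14, adjusted p = 0.0073), under all 13 alternatives. Vcp, the ATPase that extracts Nrf1 from the endoplasmic reticulum, rose from 1961 ± 149.8 to 2457 ± 93.2 (Log2FC 0.33, adjusted p = 0.0176), a call lost without mNrf2-TG 17 (0.0558) or 18 (0.0655). Nfe2l1 itself stood at 5861 ± 312 and 5279 ± 133 (Log2FC -0.15, adjusted p = 0.14), and Ngly1 and Syvn1 did not pass.

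Nrf2 targets outside the proteasome moved on another scale. Of 6 listed, Srxn1 (Log2FC 3.79), Nqo1 (3.28), Gclm (2.68) and Txnrd1 (2.61) rose, and Gclc (-0.02) and Hmox1 (-0.34) did not pass. The quinone reductase Nqo1 went from 528 ± 59.9 to 5131 ± 303 normalized counts. By comparison, the largest increase of a constitutive proteasome gene that passed the test was a Log2FC of 0.71 (1.63-fold), that of Psma5.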

How the data were processed

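Hearts of 4 NTG and 3 mNrf2-TG mice were sequenced, 1 library per mouse, and groups were taken from the genotype labels. The authors deposited raw read counts per gene without normalization. The submitters' processing notes name Novoalign 2.08.01 and DESeq2 1.32.0. For the reference, the text gives hg19 for the index but mm10 (GRCm38) for the mapping, while the counting program and its use of strand are not given in the sources used here. A signal column made by the authors, the mean of counts divided by size factors, was used only to check that it belonged to the counts. Their rlog values and the columns of their own comparison (fold changes and p-values) were not used.

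Of 14665 entries, 24 repeated an Entrez gene with identical counts and were removed. mNrf2-TG was tested against NTG with edgeR 4.0.16 in R 4.3.3 (TMM, quasi-likelihood, summed count above 1, no covariate) with Benjamini-Hochberg adjustment over 14637 genes, after the fit was tested on simulated data. The p-values set each difference between groups against the spread between libraries, which the fit estimates with information shared across genes. SE was taken from Log2FC and the F statistic. Positions, exon lengths and overlaps came from GENCODE M21, and copies were found by shared stretches of 50 bases in its transcripts. Promoters came from RefSeq. Tables were made in Python 3.11.15 (pandas 2.3.3, numpy 2.4.6) and plots in matplotlib 3.10.9.

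Every member is accounted for, with values by library for those with an adjusted p under 0.05 and for Psmb5 to Psmb10 and Psme1 to Psme4, and partner genes come from fixed lists. Members and lists were chosen with earlier results of these data known. Psmb11, Psme2b, Paaf1, Cd3g, Cd8a, Ms4a1 and Hbb-bt of these lists were not analysed here, and some listed genes are not reported here. Alternatives were DESeq2 1.42.0, limma-voom (limma 3.58.1), DESeq2 size factors, the library total alone, filterByExpr, no filter, ratios without division by length, and leaving out each library.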

Additional observations from a re-analysis of the deposited data

Results flagged for a closer look

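In 3 members, 1 of the 4 NTG libraries lay far from the other 3, by Dixon's gap test. This test marks about 5% of groups by chance, and it was run on every member. Psma1 had 1189.5 normalized counts in NTG 1 and 1118 to 1127 in the other controls. Psma5 had 209 in NTG 2 and 193 to 195 in the others. Psmb9 had 36.8 in NTG 1 and 24.9 to 26.8 in the others. In each of these genes the outlying control lay on the high side, and all 4 controls remained outside the range of the mNrf2-TG libraries.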

How the results depend on the processing

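No paired analysis was made because the labels used here give no litter and no other link between NTG and mNrf2-TG libraries. The 6 other tools, scalings and filters called 13 or 14 members and kept all 13 calls. Leaving out 1 library called 8 to 13 members, with 2 to 6 higher and 3 to 7 lower. The lowest totals were 8 without NTG 2 and 8 without mNrf2-TG 19. Increases were 3 without NTG 1 and 2 without NTG 2, and decreases 4 without mNrf2-TG 17 and 3 without mNrf2-TG 19. Psma5, Psmb4, Psmb2 and Psmc6 passed under all 13 settings. A sign changed only in genes that did not pass: Psmd11 on the library total alone (-0.016 to 0.011), and, over fits leaving out 1 library, Psmd11 (-0.097 to 0.089), Psmb8 (-0.086 to 0.95), Psma6 (-0.061 to 0.0026), Psma8 (-0.012 to 1.03) and Psmc3ip (-0.18 to 0.080). The cause of these changes was not tested. Calls lost in such fits rest on fewer samples. Psma8 and Psmc3ip had few counts and a large SE of Log2FC (0.50 and 0.26). What size of change could be detected in them was not tested, and Psma8 did not pass filterByExpr.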
